A study of Arabidopsis thaliana with 6 samples.

Results

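The genes described here encode glutathione transferases, glutaredoxins, thioredoxins, methionine sulfoxide reductases and a glutathione reductase, enzymes that work through thiol groups. They were taken by symbol from the rows of the array that are paired with exactly 1 gene. Symbols starting with GSTU, GSTF, GSTL, GSTT, GSTZ, DHAR, GRX, ROXY, TRX, GPX, APX or MSR, or equal to GR1, were kept, which gave 28 genes of the 16548 that were named and tested. Of the 92 protein-coding genes that carry such a symbol in RefSeq, the other 64 were not analysed here. The totals that follow count only genes with such a symbol, and genes of these families under other symbols were not counted. The 28 comprise 11 of 27 tau, 2 of 12 phi and 1 of 3 lambda glutathione transferases. They also comprise 5 of 8 glutaredoxins, 1 of 8 thioredoxins, 7 of 12 methionine sulfoxide reductases and GR1. No theta or zeta transferase, dehydroascorbate reductase (DHAR), glutathione peroxidase (GPX) or ascorbate peroxidase with an APX symbol was among them.

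Both groups were roots of 8-week-old Arabidopsis thaliana, all Col-0 WT (the reference accession of the species), grown hydroponically under short days at 22 °C. The medium was MGRL with its sulfate exchanged for chloride. One group received 150 µM sodium thiosulfate and the other 300 µM sodium sulfate, and because each thiosulfate ion carries 2 sulfur atoms the sulfur supplied was equal. Each group had 3 arrays labelled as biological replicates. The labels do not say whether these came from separate cultures or from pooled plants, and a p-value here reflects only how far such arrays spread, which may be technical.

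Glutathione is a small thiol peptide made from cysteine, and it is a main store of reduced sulfur in plant cells. Glutathione transferases attach it to reactive or foreign compounds, glutathione reductase keeps it reduced, and glutaredoxins use it to reduce disulfides on proteins. Thioredoxins reduce disulfides with electrons from NADPH or ferredoxin, and methionine sulfoxide reductases draw on thioredoxins or glutaredoxins to repair oxidized methionine. In roots these families are known for detoxification and for answering oxidative stress. The question put to the data is whether transcripts of these thiol-dependent families differ in roots fed a more reduced sulfur compound than sulfate.

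All values below are log2 expression values as deposited. Array medians over all 38408 rows lay between 2.41 and 2.48 in thiosulfate and between 2.35 and 2.38 in sulfate. Correlations over the genes tested lay between 0.980 and 0.983 within thiosulfate, at 0.982 within sulfate, and between 0.974 and 0.982 across groups. The tissue label could be checked only in part. EXPA7 and EXPA18, root hair expansins, were the 2 measured of 6 root hair entries. EXPA7 ranged over 2.71 to 3.09 on thiosulfate arrays and 2.24 to 3.19 on sulfate arrays. For EXPA18 the ranges were 2.27 to 3.33 on thiosulfate arrays and 2.14 to 2.61 on sulfate arrays. No entry of the endodermis, stele, meristem or root uptake lists was measured. Of 12 green tissue entries 2 were measured. RCA, Rubisco activase, ranged over 3.58 to 3.77 on thiosulfate arrays and 3.71 to 3.80 on sulfate arrays, and LHCB4.1, a light-harvesting protein, over 2.35 to 3.69 on thiosulfate arrays and 3.01 to 3.35 on sulfate arrays. AGL66, the single measured of 6 pollen and flower entries, ranged over 0.80 to 1.49 on thiosulfate arrays and 0.85 to 1.08 on sulfate arrays. RCA and LHCB4.1 had higher means over the 6 arrays (3.71 and 3.08) than EXPA7 and EXPA18 (2.74 and 2.51). The levels of these few genes therefore do not settle the tissue. Precision is limited by the number of arrays.

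None of the 28 genes differed between thiosulfate and sulfate roots at a limma adjusted p of 0.05 over all genes tested, and the smallest adjusted p was 0.32. Over all genes that threshold was passed by 0.0121%, the 2 genes AT1G15540 and AGL89, neither of which belongs to these families. At an unadjusted p under 0.05 there were 4 of the 28, or 14.3%, beside 10.0% of all genes. GSTU28, GSTU27 and MSRB5 were higher in thiosulfate (5.39% of all genes in that direction) and GSTF3 was lower (4.64%). The same 4 were the genes whose groups did not overlap, again 14.3% of the 28, beside 14.7% of all genes (7.11% higher and 7.57% lower). Both shares lie near their background, so they are not a result about these families. The count at an unadjusted p fell to 2 when sulfate replicate 3, thiosulfate replicate 2 or thiosulfate replicate 3 was left out, and GSTF3 was in each of these pairs. In roots, fewer cells of a type and less RNA per cell cannot be told apart in such values.

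**Figure D1:**
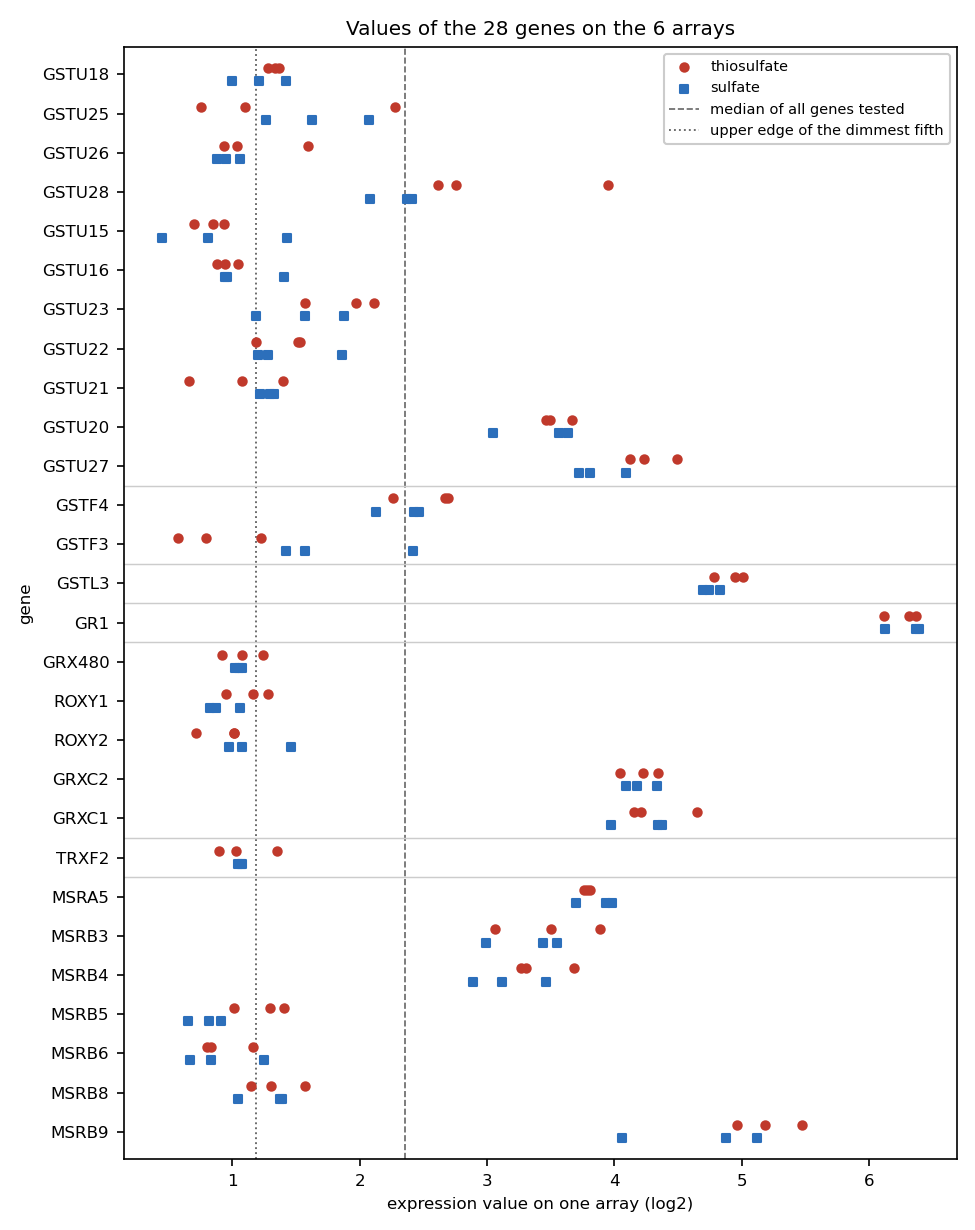
Expression values (log2, x axis) of the 28 genes (rows, with families parted by grey lines) on the 3 thiosulfate arrays (red circles) and the 3 sulfate arrays (blue squares), with dashed and dotted lines at the median of all genes tested (2.36) and at the upper edge of the dimmest of 5 equal bins of them (1.19). The circles stand apart from the squares in GSTU28, GSTU27, GSTF3 and MSRB5, and most other rows overlap widely.

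Many of the rows were dim. Of the 28, 16 had a mean in the lower 2 of 5 equal bins of the genes tested, below 1.80, and 10 of these lay in the dimmest bin, below 1.19. A filter that kept the 12411 brightest genes kept 17 of the 28, and one that kept the brightest 8274 kept 12. The deposited values come without a background bound. For the dim genes a difference is therefore one of listed values, and a narrow interval does not exclude a change in transcript level. The median 95% interval reached 0.41 to either side, or 1.33-fold, beside 0.39 over all genes. It excluded a 2-fold difference in either direction for 24 of the 28, beside 92.7% of all genes. The exceptions were GSTU25, GSTU28, GSTF3 and MSRB9.

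The tau class, specific to plants, is the largest class of glutathione transferases in Arabidopsis. Of its 11 measured genes 6 had a higher mean in thiosulfate and 5 a lower one, with a median difference of 0.12 beside -0.016 over all genes. After a further quantile normalization that median was 0.007, and without thiosulfate replicate 1 it was 0.025. GSTU28 (AT1G53680, chromosome 1) was listed at 3.95, 2.61 and 2.76 on the thiosulfate arrays, against 2.08, 2.37 and 2.41 on the sulfate arrays. Every thiosulfate value lay above every sulfate value, and thiosulfate replicate 1 stood more than 1 unit above the other thiosulfate arrays. The means were 3.11 ± 0.73 in thiosulfate and 2.29 ± 0.18 in sulfate (SD, n = 3 each). The difference of 0.82 is 1.76-fold (SE 0.32, 95% interval 0.10 to 1.53, limma adjusted p = 0.43). Without thiosulfate replicate 1 the difference was 0.40 (limma adjusted p = 0.70), and the remaining thiosulfate arrays still lay above every sulfate array.

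GSTU27 (AT3G43800, chromosome 3) was listed at 4.12, 4.49 and 4.23 in thiosulfate, against 4.09, 3.72 and 3.81 in sulfate. The gap between the groups was narrow, since thiosulfate replicate 1 lay just above sulfate replicate 1. The difference was 0.41, or 1.33-fold (SE 0.17, 95% interval 0.03 to 0.78, limma adjusted p = 0.46). It kept its sign in all 16 alternatives and ran from 0.30 to 0.52 with 1 array left out.

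GSTU25 (AT1G17180), whose enzyme is known to conjugate the explosive TNT, had the highest pooled SD within groups among the 28. It was listed at 2.28, 0.75 and 1.104 in thiosulfate, against 1.26, 1.63 and 2.07 in sulfate, with a difference of -0.27 (95% interval -1.102 to 0.55). Thiosulfate replicate 1 was the highest of all 6 arrays, while the other thiosulfate arrays lay below every sulfate array. Without that array the difference was -0.72 (unadjusted p = 0.021, adjusted p = 0.66), and without thiosulfate replicate 2 it was 0.038. GSTU26 (AT1G17190), its neighbour on chromosome 1, was also highest on thiosulfate replicate 1, at 1.59 beside 0.94 and 1.04 on the other thiosulfate arrays and 0.88, 1.06 and 0.95 in sulfate. Both genes were dim, with means of 1.52 for GSTU25 and 1.08 for GSTU26 over all 6 arrays.

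GSTU20, GSTU21, GSTU22 and GSTU23 lie side by side on chromosome 1 with no other protein-coding gene between them in RefSeq. Their differences did not run one way: GSTU23 had 0.34 (95% interval -0.14 to 0.83), GSTU22 -0.038, GSTU21 -0.23 and GSTU20, whose protein binds the jasmonate-conjugating enzyme FIN219, 0.12. GSTU23 was listed at 2.11, 1.97 and 1.57 in thiosulfate, against 1.18, 1.88 and 1.57 in sulfate, so the groups overlapped, and without sulfate replicate 1 the difference was 0.16. GSTU20 was listed at 3.49, 3.46 and 3.67 in thiosulfate, against 3.57, 3.64 and 3.04 in sulfate, and its difference turned to -0.063 without sulfate replicate 3. Whether probes tell such related neighbours apart is not given in the sources used here.

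The last tau genes, GSTU15, GSTU16 and GSTU18, had differences of -0.065, -0.15 and 0.12. They were dim, as were GSTU21, GSTU22, GSTU23, GSTU25 and GSTU26, so 8 of the 11 tau genes had a mean below 1.80. Across the 11 tau genes thiosulfate replicate 1 held the highest value in 4, namely GSTU23, GSTU25, GSTU26 and GSTU28, and the lowest in 1. It held the highest value in 3057 of the 16548 genes tested and the lowest in 3898. The mean deviation of the tau genes from their own means was 0.23 on that array and lay between -0.082 and -0.018 on the others. Their median deviation was 0.077 there and lay between -0.15 and -0.015 on the others. Over all genes tested the mean deviation of that array was -0.012 and the median -0.022. EXPA18 was also highest there, at 3.33 beside 2.27 and 2.41 on the other thiosulfate arrays and 2.14 to 2.61 in sulfate. EXPA7, the other measured root hair gene, was highest on sulfate replicate 1, at 3.19 beside 3.09 on thiosulfate replicate 1. The part of thiosulfate replicate 1 in the tau values beyond the fits without it was not tested.

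The phi class was measured through GSTF3 and GSTF4. GSTF3 (AT2G02930, chromosome 2) had the largest difference of the 28 and the smallest p. It was listed at 0.58, 0.79 and 1.22 in thiosulfate, against 1.42, 1.57 and 2.42 in sulfate. All thiosulfate values lay below all sulfate values, with sulfate replicate 3 well above the others. The means were 0.86 ± 0.33 in thiosulfate and 1.80 ± 0.54 in sulfate (SD, n = 3 each), a difference of -0.94 (SE 0.27, 95% interval -1.56 to -0.32, unadjusted p = 0.0074 and adjusted p = 0.32 by limma across all genes). The thiosulfate mean lay below 0.987, the median of the dimmest bin, so no fold is given for it. Without sulfate replicate 3 it was -0.63. GSTF3 and GSTF2 are closely related copies, GSTF2 was not analysed here, and probe overlap between them was not tested. GSTF4 (AT1G02950) had a difference of 0.21 (95% interval -0.19 to 0.60) with overlapping groups, at 2.70, 2.67 and 2.27 in thiosulfate, against 2.13, 2.43 and 2.46 in sulfate. That difference was 0.099 without sulfate replicate 1 and 0.35 without thiosulfate replicate 3. The phi genes therefore lay on opposite sides of 0.

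GSTL3 (AT5G02790) belongs to the lambda class, whose members carry a catalytic cysteine and act as reductases more than as transferases. Its pooled SD within groups was the lowest of the 28, and it was listed at 5.01, 4.95 and 4.78 in thiosulfate, against 4.69, 4.74 and 4.83 in sulfate. The groups overlapped through thiosulfate replicate 3 and sulfate replicate 3. The difference was 0.16, with a 95% interval of -0.16 to 0.48 and a limma adjusted p of 0.75.

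GR1 (AT3G24170, chromosome 3) encodes the glutathione reductase of cytosol and peroxisomes, which regenerates glutathione from its disulfide with NADPH. It was listed at 6.31, 6.37 and 6.11 in thiosulfate, against 6.37, 6.12 and 6.39 in sulfate, and the groups covered nearly the same range. The difference was -0.029 (SE 0.15, 95% interval -0.37 to 0.31, limma adjusted p = 0.97). The bounds of that interval correspond to levels between 0.77 and 1.24 times that of sulfate.

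**Figure D2:**
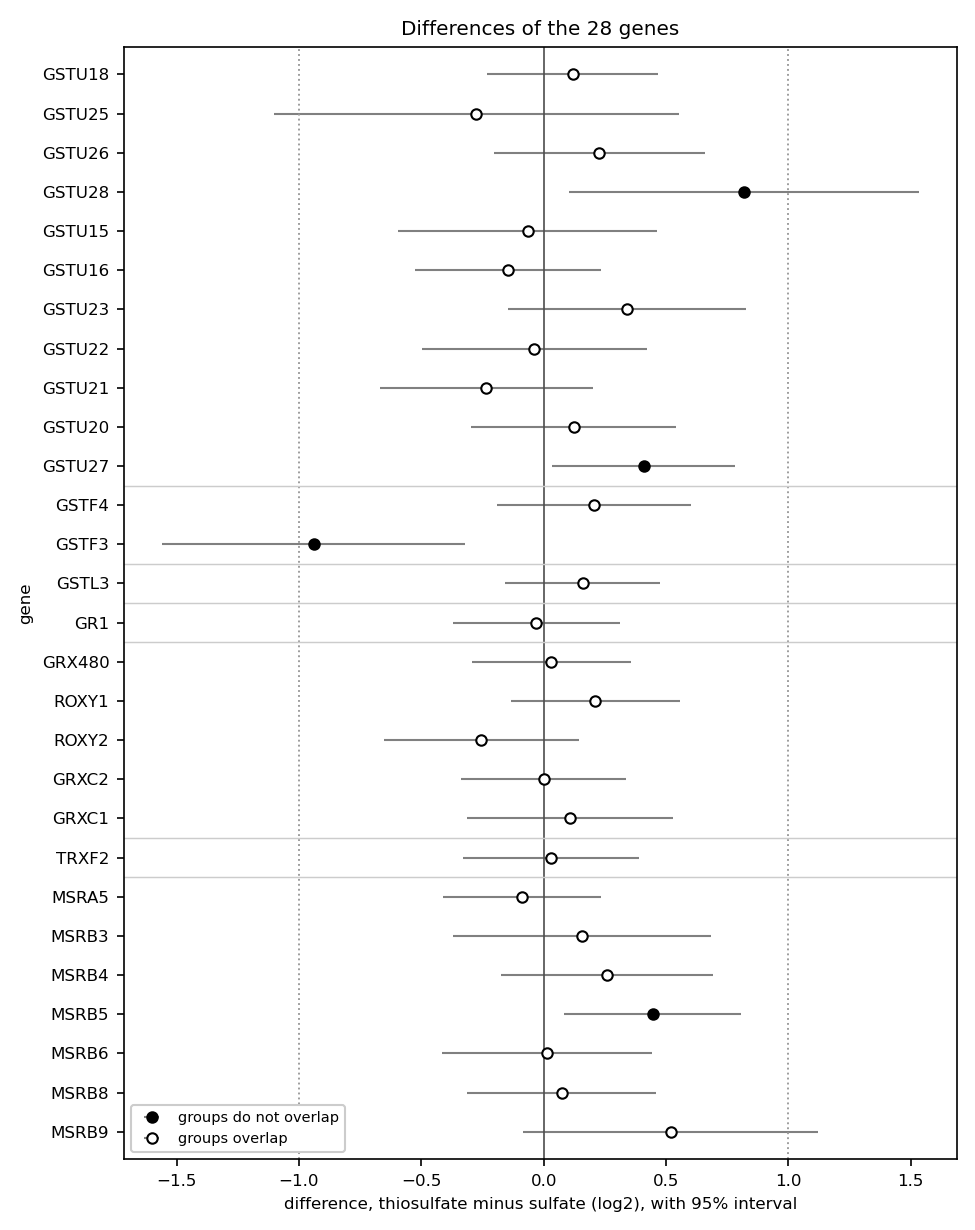
Difference of thiosulfate minus sulfate (log2, x axis) for each of the 28 genes with its 95% limma interval. Filled points mark the 4 genes whose groups do not overlap, and dotted lines mark a 2-fold difference. Intervals of GSTU28, GSTU27, GSTF3 and MSRB5 exclude 0, and none of these passed the correction over all genes.

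The 5 glutaredoxins comprise the classical dithiol type, GRXC1 and GRXC2, and the plant-specific CC type, GRX480, ROXY1 and ROXY2. GRXC1 (AT5G63030), which can bind an iron-sulfur cluster, was listed at 4.21, 4.65 and 4.16 in thiosulfate, against 4.35, 3.98 and 4.37 in sulfate. The difference of 0.11 (95% interval -0.31 to 0.53, limma adjusted p = 0.88) was 0.0045 after a further quantile normalization and turned to -0.048 without thiosulfate replicate 2. GRXC2 (AT5G40370) was listed at 4.23, 4.34 and 4.04 in thiosulfate, against 4.18, 4.09 and 4.34 in sulfate, and its difference was -0.00031 (95% interval -0.34 to 0.34). Both classical glutaredoxins overlapped between the groups, and their intervals reach at most 1.44-fold.

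GRX480 (also ROXY19) is known to bind TGA transcription factors and to act between the salicylate and jasmonate pathways. ROXY1 and ROXY2 are known from petal and anther development. All 3 were dim, with means between 1.03 and 1.07. GRX480 was listed at 0.92, 1.25 and 1.08 in thiosulfate, against 1.02, 1.05 and 1.08 in sulfate, a difference of 0.032. ROXY1 (AT3G02000) had a difference of 0.21 (95% interval -0.13 to 0.56). ROXY2 (AT5G14070), at 1.02, 0.72 and 1.02 in thiosulfate, against 1.46, 1.08 and 0.97 in sulfate, had one of -0.25 (95% interval -0.65 to 0.14, limma adjusted p = 0.68), which was -0.11 without sulfate replicate 1. Groups overlapped in each of them, and ROXY1 and ROXY2 lay on opposite sides of 0. The median difference of the 5 glutaredoxins was 0.032, and it lay between -0.050 and 0.11 with 1 array left out. TRXF2 (AT5G16400), a plastid thioredoxin that activates enzymes of carbon fixation in light, was the only gene analysed with a TRX symbol. It was dim too. It was listed at 1.36, 1.03 and 0.90 in thiosulfate, against 1.04, 1.08 and 1.07 in sulfate, and its difference of 0.030 turned to -0.10 without thiosulfate replicate 1.

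Methionine sulfoxide reductases of the A type reduce the S form of methionine sulfoxide, and those of the B type the R form. Of the 7 measured, all 6 B-type genes had a higher mean in thiosulfate and MSRA5 a lower one, beside 47.1% of all genes with a higher mean and 52.9% with a lower one. This split was the same after a further quantile normalization and after median centring. Without sulfate replicate 2, 3 of the 7 were higher, and without thiosulfate replicate 2, 4 were. The family's median difference was 0.16, and it was -0.012 without sulfate replicate 2 and 0.32 without thiosulfate replicate 2. Sulfate replicate 2 held the lowest value in 3 B-type genes and the highest in none, beside 2582 and 2845 of the 16548 genes tested. The B-type genes had a mean deviation of -0.23 there and a median of -0.23, beside 0.0052 and -0.0016 over all genes tested. Sulfate replicate 3 held the lowest value in 2 B-type genes and the highest in none, beside 2778 and 2677 of all genes tested. The B-type genes had a mean deviation of -0.18 on it and a median of -0.029, beside -0.0079 and -0.0034 over all genes. That mean came largely from MSRB9, listed at 4.06 there beside its mean of 4.95. Of the 28 genes, none had its highest value on sulfate replicate 2, where 2845 of the 16548 genes tested had theirs. That array was singled out after its values were seen. Of the 12 other genes of glutathione, thioredoxin and ascorbate metabolism described below, 2 had their highest value on it.

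MSRB5 (AT4G04830, chromosome 4) was listed at 1.01, 1.30 and 1.41 in thiosulfate, against 0.91, 0.82 and 0.65 in sulfate. The groups did not overlap, but every sulfate value lay in the dim range, so the difference is again one of listed values. The means were 1.24 ± 0.20 in thiosulfate and 0.79 ± 0.13 in sulfate (SD, n = 3 each), a difference of 0.45 (SE 0.16, 95% interval 0.08 to 0.81, limma adjusted p = 0.41). MSRB9 (AT4G21850), well above the dim range, was listed at 5.47, 4.96 and 5.18 in thiosulfate, against 5.12, 4.88 and 4.06 in sulfate. Sulfate replicate 3 lay far below the rest, and sulfate replicate 1 lay above thiosulfate replicate 2. The difference of 0.52, or 1.43-fold (SE 0.27, 95% interval -0.08 to 1.12, limma adjusted p = 0.56), was 0.21 without sulfate replicate 3. MSRB8 (AT4G21840), its neighbour, had a difference of 0.073 at a low level.

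MSRB3, MSRB4, MSRB5 and MSRB6 lie side by side on chromosome 4. MSRB3, whose protein resides in the endoplasmic reticulum, was listed at 3.89, 3.07 and 3.50 in thiosulfate, against 3.55, 2.99 and 3.44 in sulfate, a difference of 0.16 (95% interval -0.37 to 0.68). MSRB4 was listed at 3.27, 3.30 and 3.68 in thiosulfate, against 2.89, 3.12 and 3.46 in sulfate, a difference of 0.26 (95% interval -0.17 to 0.69). With 1 array left out the difference ran from -0.045 to 0.37 for MSRB3 and from 0.13 to 0.41 for MSRB4. In both genes the spread within groups was larger than the difference or close to it, and the groups overlapped. MSRB6 was dim and had a difference of 0.014, which changed sign when sulfate replicate 2, sulfate replicate 3 or thiosulfate replicate 2 was left out. MSRA5 (AT2G18030) was listed at 3.79, 3.81 and 3.76 in thiosulfate, against 3.98, 3.94 and 3.70 in sulfate, a difference of -0.087 (95% interval -0.41 to 0.24). Its thiosulfate arrays lay within the range of the sulfate arrays.

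**Figure D3:**
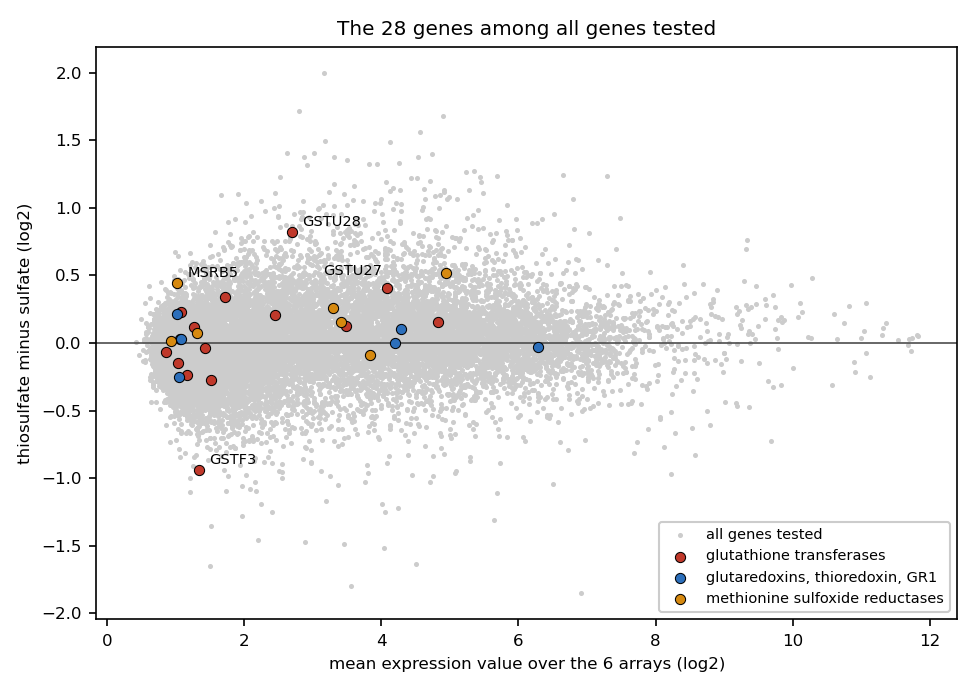
Difference of thiosulfate minus sulfate (log2, y axis) against the mean value over the 6 arrays (log2, x axis) for all 16548 genes tested (grey) and the 28 genes, coloured as glutathione transferases (red), glutaredoxins, thioredoxin and GR1 (blue) and methionine sulfoxide reductases (orange). The 28 lie inside the cloud of all genes, and the genes whose groups do not overlap are named.

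Set against all genes, 18 of the 28 had a higher mean in thiosulfate and 10 a lower one, and the median difference was 0.09, beside -0.016. Both values vary with level over all genes. In the 2 dimmest of the 5 bins 34.0% of all genes had a higher mean, with a median difference of -0.078, and in the 3 brighter bins 55.8% did, with a median of 0.035. Of the 16 dim genes of these families 9 were higher, with a median of 0.022, and of the 12 brighter ones 9 were higher, with a median of 0.16. The split of 18 and 10 was found again after a further quantile normalization and after median centring, and it was 14 and 14 without sulfate replicate 2, where the median difference was 0.010. Without sulfate replicate 3 that median was 0.15. Within groups the 28 genes varied about as much as other genes, with a median pooled SD of 0.23 beside 0.21 over all genes. Among the 28 it ran from 0.096 in GSTL3 to 0.63 in GSTU25. Of the 28, 15 kept the sign of their difference in every alternative run and 13 changed it in at least 1.

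**Figure D4:**
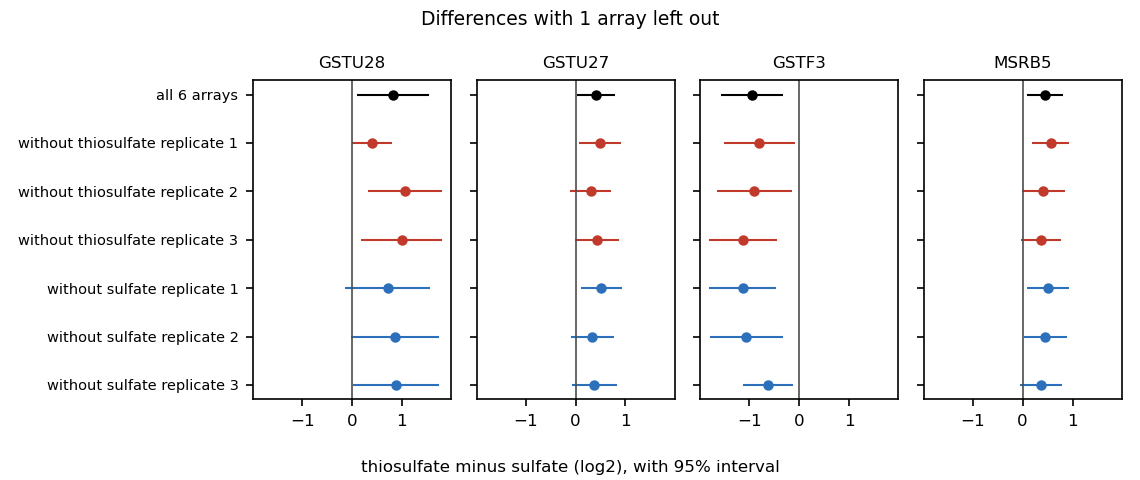
Difference of thiosulfate minus sulfate (log2, x axis) with its 95% limma interval for GSTU28, GSTU27, GSTF3 and MSRB5, fitted on all 6 arrays (black), with a thiosulfate array left out (red) and with a sulfate array left out (blue). All 4 keep their sign, GSTU28 lies at 0.40 without thiosulfate replicate 1, and GSTF3 lies at -0.63 without sulfate replicate 3.

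Few other genes of glutathione, thioredoxin and ascorbate metabolism were on rows named here. Of 128 entries in a list of such genes, 12 that are not among the 28 were on such rows. None passed the limma correction, and in the limma fit used throughout, with all 6 arrays, no block and no intensity trend, none had an unadjusted p under 0.05. Of the 12, 8 had a higher mean in thiosulfate and 4 a lower one, with SRX and PRXIIF of the higher ones turning lower after a further quantile normalization, and the median difference was 0.093. The 4 with a lower mean were GLX2-1, GLY2, GLX2-4 and GLX2-5, the genes of the glyoxalase II family in that list. Any further gene of that family was not looked up. Of all genes 52.9% had a lower mean, and the 4 were set together after their values were seen. Glyoxalase II enzymes are known to free glutathione from lactoylglutathione, and whether each of the 4 genes encodes that activity was not tested. The differences of these 4 genes lay between -0.27 and -0.11, with limma adjusted p between 0.66 and 0.87. They stayed below 0 after a further quantile normalization and after median centring. GLY2 (AT3G10850) was listed at 6.70, 6.65 and 6.22 in thiosulfate, against 6.82, 6.40 and 6.72 in sulfate, with a difference of -0.12 (95% interval -0.54 to 0.30) that was 0.031 without thiosulfate replicate 3. Groups overlapped in each of these genes.

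PRXIIF (AT3G06050), the mitochondrial type II peroxiredoxin, was listed at 6.18, 6.19 and 6.12 in thiosulfate, against 6.38, 5.97 and 6.06 in sulfate. Its difference of 0.026 turned to -0.036 after a further quantile normalization. ATMDAR2 (AT5G03630), a monodehydroascorbate reductase, had a difference of 0.18 (95% interval -0.23 to 0.59), at 6.42, 6.38 and 5.86 in thiosulfate, against 6.12, 5.91 and 6.08 in sulfate. With 1 array left out it ran from 0.082, without thiosulfate replicate 1, to 0.36, without thiosulfate replicate 3. Groups overlapped in PRXIIF and ATMDAR2. Named after their values were seen, VTC4, a phosphatase of ascorbate synthesis, was the 1 of the 12 whose groups did not overlap (difference 0.18, limma adjusted p = 0.71), beside 14.7% of all genes. SAPX (AT4G08390), a stromal ascorbate peroxidase, had the largest difference of the 12, at 0.53 (95% interval -0.04 to 1.11, limma adjusted p = 0.53). It was listed at 5.05, 4.75 and 5.11 in thiosulfate, against 4.74, 3.82 and 4.76 in sulfate, with sulfate replicate 2 far below the rest. Without that array the difference was 0.22 (limma adjusted p = 0.80). The unadjusted limma p was 0.020 with the replicate number as a block, 0.040 without sulfate replicate 1 and 0.036 without sulfate replicate 3, and the lowest adjusted p of any alternative was 0.38. TAPX, of the thylakoid membrane, SRX, a sulfiredoxin, CCS, a copper chaperone of superoxide dismutase, and GLDH, of ascorbate synthesis, had differences between 0.042 and 0.23. TAPX turned to -0.15 without thiosulfate replicate 3 and SRX to -0.17 without thiosulfate replicate 2, and without sulfate replicate 2 CCS was at 0.12 and GLDH at 0.061.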

How the data were processed

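The authors deposited log2 expression values for 38408 rows on 6 one-colour Affymetrix arrays, made with RMA in Transcriptome Analysis Console 4.0, per the submitters' processing notes. RMA corrects background, normalizes quantiles across arrays and summarises probes. No source used here gives its variant, the genome build, detection calls, slides or scan dates. Background could therefore not be varied, and no batch was tested. Groups and replicate numbers came from the sample titles.

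Rows were named through the platform annotation, which gives 1 gene for 16722 rows, several for 759 and none for 20927. Symbols were updated through a RefSeq table of assembly TAIR10.1, used for names and neighbours. It matched all 28 genes, each read by 1 row. Of several rows for a gene, the one with the highest mean was used, giving 16548 genes.

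Differences are thiosulfate minus sulfate, tested with limma 3.58.1 in R 4.3.3 over all 16548 genes: a model with group as its term, moderated variances without trend, two-sided, Benjamini-Hochberg adjusted at 0.05. The fit was tested on simulated data. Described array by array were genes at an unadjusted p under 0.05, the gene with the highest mean and that with the smallest p in each family, some of the other genes of the families, and the 3 related genes with the highest means. The genes, lists and rules were chosen with earlier results of these data known. Same-numbered arrays were not taken as pairs: deviations from group means correlated at 0.056, -0.0247 and -0.0315. Alternatives were scaling, filters on dim genes, row choice, variance models, array weights, the replicate block and leaving out each array. Tables and plots used Python 3.11.15, pandas 2.3.3 and matplotlib 3.10.9. No sequences are printed, because none were used here.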

Additional observations from a re-analysis of the deposited data

How the results depend on the processing

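None of the 28 genes passed a limma adjusted p of 0.05 in any of the 16 alternatives. The smallest adjusted p among them was 0.18, for GSTF3 with the replicate number as a block. The count of 4 at an unadjusted p under 0.05 (3 higher, 1 lower) was 2 with 0 lower when only the 8274 brightest genes were kept, since GSTF3 and MSRB5 were filtered out. It was 2 with 1 higher when every row was tested, and 1, with 1 higher and 0 lower, without shared variance. With 1 array left out it ran from 2 to 4, with 1 to 3 higher and 1 to 2 lower. Over all genes the count of 2 called was 1 among the 8274 brightest genes, 0 when every row was tested (3502 at an unadjusted p under 0.05), 0 without shared variance (1297), 0 with the replicate block (1717), and 0 to 2 with 1 array left out. The block left 4 of the 28 at an unadjusted p under 0.05, with MSRB9 in and GSTU27 out, although same-numbered arrays did not deviate together. With the block SAPX of the related genes also had an unadjusted p under 0.05 (0.020). None of the 28 or of the 12 related genes passed the adjusted threshold with it. Among the 8274 brightest genes the median difference of the 12 kept of the 28 was 0.16, beside 0.047 over all 8274. There the tau median was 0.41 over the 3 genes kept, and the phi median was 0.21, from GSTF4 alone. The tau median was 0.23 among the 12411 brightest genes and 0.0074 after a further quantile normalization. With 1 array left out the median ran from 0.010 to 0.15 over the 28, from 0.025 to 0.17 for tau, from -0.52 to -0.18 for phi, from -0.050 to 0.11 for glutaredoxins and from -0.012 to 0.32 for methionine sulfoxide reductases. With 1 array left out, 13 of the 28 and 4 of the 12 related genes changed sign in at least 1 fit. Among those described by the naming rule the differences ran from -0.12 to 0.046 for GR1, -0.048 to 0.20 for GRXC1, -0.10 to 0.13 for TRXF2, -0.24 to 0.031 for GLY2 and -0.055 to 0.15 for PRXIIF, which was also -0.036 after a further quantile normalization. The causes of these moves, where no filter explains them, were not tested. A further quantile normalization moved the median difference of all genes to -0.047, against -0.016 as deposited.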
